A study of Sus scrofa with 12 samples.

Results

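Solute carriers are membrane proteins that move ions, sugars, amino acids, monocarboxylates, metals and other small molecules across cell membranes, and their genes are named SLC followed by a family number. The genes described here are those SLC genes, without the mitochondrial SLC25 family, selected on their level, a mean of at least 1 CPM (counts scaled to a fixed library total) over the muscle libraries of 12 pigs. Of 20741 counted features, 258 carried an SLC symbol, 27 of these were SLC25 genes, and 112 of the remaining 231 reached the minimum. The other 119 lay under it, and 27 of them had 0 counts in all 12 libraries. The carriers just above the minimum were SLC23A1 at 1.01 CPM, SLC38A1 at 1.15 CPM and SLC22A15 at 1.20 CPM, and those just below were SLC16A6 at 0.978 CPM, SLC9A9 at 0.977 CPM and SLC41A2 at 0.927 CPM. SLC12A2, SLC30A2 and SLC20A2 were chosen by their difference between drip groups in these same animals, so their drip values are a description and carry no test.

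The study sequenced muscle RNA from pigs labelled high or low for drip, the fluid that fresh meat loses in storage. The high drip group held 6 animals, 3 female and 3 male, aged 176 ± 6.92 days (SD), and the low drip group also held 6, 3 female and 3 male, aged 178 ± 6.74 days. The labels name the tissue only as muscle and give no breed, genotype or treatment for either group. In this text replicates 1 to 3 of each drip group are the females and 4 to 6 the males.

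In resting muscle the sodium pump keeps a sodium gradient that secondary carriers then spend. SLC12A2 brings sodium, potassium and chloride into the cell together, and water follows, which ties it to cell volume. SLC8 carriers exchange calcium for sodium, and SLC4 carriers move bicarbonate. Some SLC16 carriers, SLC16A3 among them, move lactate with a proton. SLC2A4 brings glucose in when insulin or contraction calls for it. Drip is commonly studied together with the acidification of muscle after slaughter and with the movement of water out of the fibre.

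Each library held 8009627 to 12622043 gene counts, and each animal was given the whole-genome count table that carries its number. That choice matters for 3 females, high drip replicate 2 and low drip replicates 1 and 2, because the record lists another animal's table for them. Each animal's second table, which counts features in chosen chromosomal regions, shared 737 to 745 identical counts of 770 with the table of its own number and at most 167 with any other. The muscle genes ACTA1, TNNC2, PYGM, DES and CASQ1 together took 105436 to 157843 CPM in every library. Liver transcripts were present in 6 libraries, high drip replicates 1 to 4 and low drip replicates 5 and 6, where albumin (ALB) lay between 26.7 and 311 CPM, against 0.351 to 2.34 CPM in the other 6. All 3 high drip females and none of the low drip females were among them, so drip and liver transcripts cannot be told apart among the females. Among the males 1 high drip and 2 low drip libraries held them, and 2 high drip and 1 low drip library did not, so a drip difference taken within libraries of one kind would rest on 1 male in a drip group, and no such value is given. All 6 measured adipocyte markers (PLIN1, CIDEC, PNPLA2, LIPE, FASN and SCD) had lower fitted levels in the high drip group, with a median log2 difference of -0.43, a summed level of 117 to 516 CPM against 201 to 661 CPM, and none at 0; their part in any difference below was not tested.

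The 112 carriers fell into 20 for amino acids, 18 for ions and water balance, 15 for metals, 15 of the nucleotide sugar family, 10 for glucose and other sugars, 4 for lactate and other monocarboxylates, and 30 for other substrates or none known. Every member had counts in every library, from 4 to 5734 counts. A mean of at least 10 CPM was reached by 49 members and a mean of at least 100 CPM by 4. Those 4 were SLC37A4, which carries glucose 6-phosphate into the endoplasmic reticulum, SLC3A2, the heavy chain shared by several amino acid exchangers, SLC44A2, a choline transporter-like protein, and SLC7A8, a light chain that pairs with SLC3A2. Gene lengths were not used here, so levels in CPM are compared between animals and not between genes.

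Between the drip groups no carrier passed the test. With edgeR's quasi-likelihood test, sex as a term and Benjamini-Hochberg adjustment over 10411 features, 0 of 112 members had an adjusted p under 0.05, where the share over all features was also 0%, and the smallest adjusted p of a member was 0.999. At an unadjusted p under 0.05 there were 5 of the 109 members outside the chosen 3 (4.59%), against 3.54% of all features, with edgeR and also with DESeq2, and 6 with limma voom, and neither of these tools called a member after adjustment. Of the 112, 56 were higher and 56 lower in high drip muscle, and the median log2 difference was -0.00066, against 0.0028 over all features tested. In bulk muscle, fewer cells of a type and less RNA per cell cannot be told apart.

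**Figure D1:**
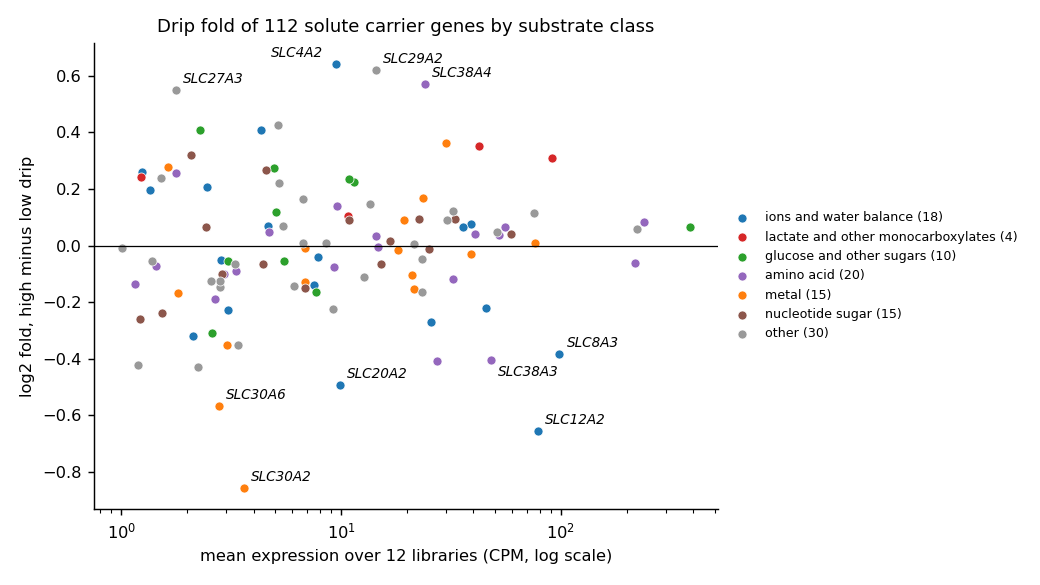
Log2 difference between high and low drip (vertical axis, sex as a term) against mean level over 12 libraries (CPM, log scale) for the 112 solute carriers, coloured by substrate class with the number of genes in brackets. The points spread on both sides of 0, from -0.86 for SLC30A2 to 0.64 for SLC4A2, and none passed the adjusted threshold.

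Among the carriers for ions and water balance, 8 were higher and 10 lower in high drip muscle, with a median log2 difference of -0.05. For SLC12A2, the cotransporter described above, levels in the high drip group had a lowest value of 47.3, a median of 59.9 and a highest of 75.3 CPM, and in the low drip group of 66.1, 94.8 and 133 CPM. Overlap between the groups came from the females: 2 high drip females, at 66.9 and 75.3 CPM, lay beside 2 low drip females at 66.1 and 67.0 CPM. The males did not overlap, with high drip males at 65.3, 47.3 and 51.8 CPM and low drip males at 127, 100 and 133 CPM. The resulting log2 difference was -0.66 ± 0.18 (SE, n = 6 and 6), and it was -0.18 ± 0.19 in the females and -1.13 ± 0.17 in the males. With each library left out in turn, the difference between the drip groups lay between -0.75 and -0.56. Of the 3 low drip males, 2 had liver transcripts and 1 did not, and the same was seen in reverse among the high drip males, where 1 had them and 2 did not. With the presence of liver transcripts as a further term the difference was -0.81. With the tables as recorded it was -0.41.

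SLC20A2, a sodium and phosphate cotransporter, had a lowest level of 5.66, a median of 6.94 and a highest of 15.8 CPM in the high drip group, against 4.99, 11.4 and 19.4 CPM in the low drip group. The groups overlapped over nearly their whole range, because high drip replicate 4, a male, stood at 15.8 CPM and low drip replicate 4, also a male, at 4.99 CPM. The 3 high drip females, at 6.21, 6.77 and 7.32 CPM, all lay under the 3 low drip females, at 9.38, 19.4 and 12.1 CPM. The log2 difference was -0.49 ± 0.31 (SE, n = 6 and 6), -0.82 without high drip replicate 4 and -0.28 without low drip replicate 2. It was -1.01 ± 0.28 in the females and 0.02 ± 0.44 in the males, and 0.13 when the tables were taken as recorded. Its counts, 49 to 193 per library, were identical in the whole-genome and region tables of all 12 animals.

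**Figure D2:**
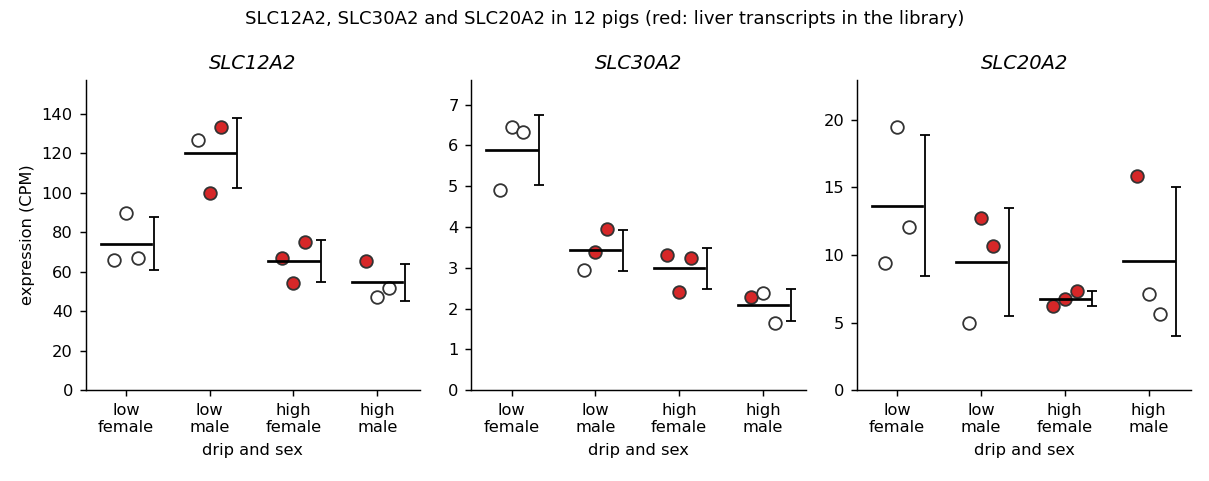
Level (CPM) of SLC12A2, SLC30A2 and SLC20A2 in each of the 12 pigs by drip group and sex, with the mean (horizontal line) and SD (bar) of the 3 animals and red points for libraries with liver transcripts. SLC12A2 separates the drip groups among the males, SLC30A2 within each sex, and SLC20A2 among the females, with high drip replicate 4 alone at 15.8 CPM. The 3 genes were chosen by their drip difference in these animals, so the separations carry no test.

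SLC8A3, a sodium and calcium exchanger of muscle and nerve, had levels of 56.8, 86.6 and 106 CPM in the high drip group (lowest, median, highest) and of 83.1, 121 and 129 CPM in the low drip group. Of the 6 low drip animals, 4 stood above every high drip animal, and the other 2, both males, lay within the high drip range. SLC8A3 thus differed by -0.38 ± 0.13 (edgeR adjusted p = 0.999), with nearly the same value in females (-0.37 ± 0.15) and males (-0.40 ± 0.22).

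SLC4A2, a chloride and bicarbonate exchanger that was chosen after its values were seen, lay the other way. Its levels were 5.17, 11.3 and 17.8 CPM in the high drip group and 5.46, 7.42 and 9.07 CPM in the low drip group. Of the 6 high drip animals, 4 stood above all low drip animals and the other 2, both females, lay among or below them. Its log2 difference was 0.64 ± 0.27 (edgeR adjusted p = 0.999), 0.14 ± 0.33 in females and 1.13 ± 0.30 in males. With the tables as recorded it was 0.29.

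SLC4A4 and SLC6A6, also of this class, differed by less than their standard error. SLC4A4, a sodium and bicarbonate cotransporter, ranged from 18.5 to 93.1 CPM and differed by -0.22 ± 0.39, and by -0.67 without high drip replicate 5. SLC6A6, which takes up the osmolyte taurine, was counted only 5 to 19 times per library and differed by 0.26 ± 0.31.

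Summed over the 18 carriers for ions and water balance, the level was 312 to 378 CPM in the high drip animals and 381 to 479 CPM in the low drip animals, with no overlap. This sum contains SLC12A2 and SLC20A2. Without these it was 238 to 324 CPM against 276 to 335 CPM, and the groups overlapped. The sums were thus apart only with the chosen carriers in them.

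Genes that work with the ion carriers did not pass the test either. Of 15 tested partner genes, including WNK1 and carbonic anhydrase 3, 9 were higher and 6 lower in high drip muscle, with a median log2 difference of 0.01. ATP1B1, a beta subunit of the sodium pump, differed by 0.00 ± 0.13. WNK1, a kinase upstream of the SLC12 carriers, differed by 0.11 ± 0.11. CA3, the abundant carbonic anhydrase of muscle, differed by -0.36 ± 0.18 (edgeR adjusted p = 0.999 for WNK1 and CA3, and 1.00 for ATP1B1).

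All 4 monocarboxylate carriers among the members had higher fitted levels in high drip muscle, with log2 differences from 0.10 to 0.35 and a median of 0.28. SLC16A1 had no ID paired with its symbol, so it is not among them. The sign was not shared by the sexes for SLC16A5, given below, SLC16A9 and SLC16A13. SLC16A9 differed by -0.40 ± 0.33 in females and 0.61 ± 0.43 in males, and SLC16A13 by 0.60 ± 0.35 and -0.17 ± 0.36. SLC16A3 differed by 0.18 ± 0.54 in females and 0.52 ± 0.41 in males. SLC16A5, a member of the monocarboxylate family, had levels of 78.8, 96.6 and 122 CPM in the high drip group and of 51.2, 79.2 and 128 CPM in the low drip group. The groups overlapped, and low drip replicate 3, a female, had the highest level of all. Its log2 difference was 0.31 ± 0.18 (edgeR adjusted p = 0.999), -0.09 ± 0.20 in females and 0.71 ± 0.19 in males.

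SLC16A3, the lactate exporter of glycolytic fibres, had levels of 21.8, 32.0 and 105 CPM in the high drip group and of 17.8, 36.2 and 61.2 CPM in the low drip group. High drip replicate 2, the library with the highest albumin level, held the highest value, and the median was lower in the high drip group than in the low drip group. The log2 difference was 0.35 ± 0.39 (edgeR adjusted p = 0.999), -0.11 without high drip replicate 2 and -0.31 when the tables were taken as recorded. In a fit of liver transcripts with drip and sex, SLC16A3 differed by -0.15 ± 0.46 between libraries with and without them. SLC16A13 differed by 0.24 ± 0.24, at 8 to 23 counts per library.

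The 3 tested partners of lactate carriers had higher fitted levels in high drip muscle, with a median of 0.13. LDHA, the lactate dehydrogenase subunit of fast muscle, stood at 18197 ± 1318 CPM in the high drip group and 16595 ± 1439 CPM in the low drip group (SD, n = 6 and 6), a log2 difference of 0.13 ± 0.10. LDHD, the mitochondrial enzyme for D-lactate, stood at 34.1 ± 10.7 and 22.3 ± 6.17 CPM, a log2 difference of 0.62 ± 0.20 (edgeR adjusted p = 0.999 for both).

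Among the 10 sugar carriers 6 were higher and 4 lower, with a median log2 difference of 0.09. SLC2A4, the insulin-responsive glucose carrier, had levels of 5.28, 6.35 and 11.4 CPM in the high drip group and of 5.83, 8.33 and 10.1 CPM in the low drip group. The high drip values enclosed all of the low drip values, and the log2 difference was -0.17 ± 0.19. SLC2A12, another insulin-responsive member of the family, differed by 0.22 ± 0.18. SLC2A8, an intracellular glucose carrier, had the smallest unadjusted p of its class and differed by 0.41 ± 0.20, at 17 to 41 counts per library. SLC37A4 differed by 0.06 ± 0.14, with levels of 267 to 458 CPM against 311 to 502 CPM (edgeR adjusted p = 0.999 for all 4). Of 9 tested genes of glucose handling beside the carriers, 6 were higher and 3 lower, with a median of 0.05.

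Among the 20 amino acid carriers 9 were higher and 11 lower, with a median log2 difference of -0.03. SLC38A3, which moves glutamine with sodium, had levels of 28.4, 41.5 and 55.4 CPM in the high drip group and of 35.8, 57.0 and 67.9 CPM in the low drip group. The 4 low drip animals without liver transcripts, at 56.4 to 67.9 CPM, stood above every high drip animal, and the 2 with them, at 35.8 and 46.7 CPM, lay among the high drip animals. The log2 difference between the drip groups was -0.40 ± 0.17 (edgeR adjusted p = 0.999), and in a fit of liver transcripts with drip and sex the libraries with them differed by -0.50 ± 0.13 from those without (adjusted p = 0.420).

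SLC3A2 and SLC7A8, which together form an exchanger of large neutral amino acids, differed by 0.08 ± 0.19 and -0.06 ± 0.26. Their highest levels did not fall in the same animal: high drip replicate 2 held the highest level of SLC3A2, 387 CPM, with a low level of SLC7A8, 112 CPM. At the low end, low drip replicate 5 held the lowest level of SLC7A8, 104 CPM. Its level of SLC3A2, 167 CPM, was close to the lowest, 165 CPM in low drip replicate 6. SLC38A2, a sodium-coupled carrier of small neutral amino acids, differed by 0.14 ± 0.25, and SLC16A10, a carrier of aromatic amino acids, by -0.41 ± 0.22. SLC1A5, a glutamine exchanger, differed by 0.03 ± 0.18 (edgeR adjusted p = 0.999 for all 5). The region table held only 30.5% to 44.6% of the counts of SLC1A5 in the whole-genome table, so its level depends on which table is read, while SLC35E4 had identical counts in both tables of all 12 animals. Of 10 tested partner genes, which include regulators that sense amino acids, 4 were higher and 6 lower, with a median of -0.05.

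Among the 15 metal carriers 5 were higher and 10 lower, with a median log2 difference of -0.03. SLC30A2, which loads zinc into vesicles, had levels of 1.64, 2.39 and 3.32 CPM in the high drip group and of 2.95, 4.42 and 6.45 CPM in the low drip group. Over both sexes the groups overlapped, between 2.95 and 3.32 CPM, but within each sex they did not. High drip females lay at 2.41 to 3.32 CPM and low drip females at 4.91 to 6.45 CPM. High drip males lay at 1.64 to 2.37 CPM and low drip males at 2.95 to 3.94 CPM. The gene was chosen by its drip difference, so this separation is a description and carries no test. The log2 difference was -0.86 ± 0.18 (SE, n = 6 and 6), between -0.91 and -0.78 when each library was left out. It was -0.79 in the 9 animals whose recorded table carries their own number and -0.36 with the tables as recorded. The gene was counted only 18 to 64 times per library.

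SLC30A6, a zinc carrier of the Golgi that was chosen after its values were seen, was the single member whose drip groups did not overlap (1 of 112, 0.893%, against 0.106% of all features). Its levels were 1.40, 2.34 and 2.65 CPM in the high drip group and 2.69, 3.28 and 4.13 CPM in the low drip group. The gap between the groups was narrow, and the counts, 13 to 41 per library, were few. The log2 difference was -0.57 ± 0.19 (edgeR adjusted p = 0.999), and -0.25 with the tables as recorded.

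The magnesium carriers SLC41A1 and SLC41A3 differed by 0.01 ± 0.15 and -0.03 ± 0.15. SLC31A2, a copper transporter-like protein chosen after its values were seen, differed by 0.36 ± 0.21 (edgeR adjusted p = 0.999 for all 3). Without SLC30A2 the summed level of the metal carriers was 244 to 319 CPM in the high drip group and 244 to 292 CPM in the low drip group. All 4 tested partners of metal handling were higher in high drip muscle, with a median of 0.22, and STEAP3, an iron reductase of endosomes, differed by 0.35 ± 0.13 (edgeR adjusted p = 0.999).

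**Figure D3:**
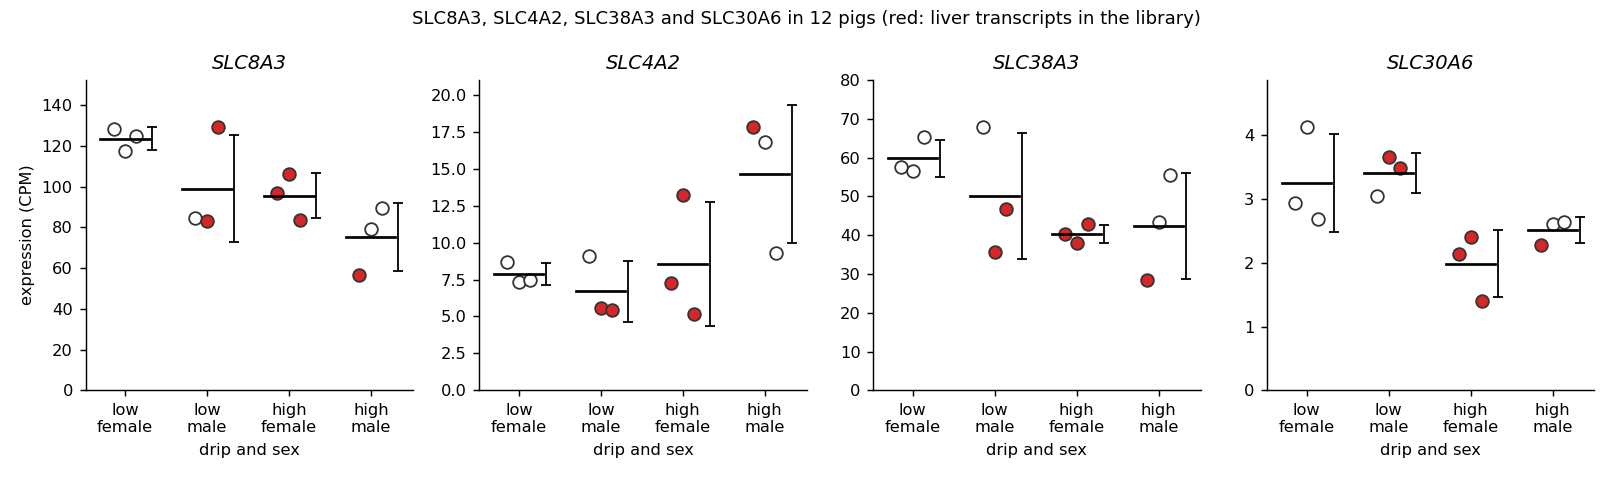
Level (CPM) of SLC8A3, SLC4A2, SLC38A3 and SLC30A6 in each of the 12 pigs by drip group and sex, with the mean (horizontal line) and SD (bar) of the 3 animals and red points for libraries with liver transcripts. Only SLC30A6 has no overlap between the 6 high and the 6 low drip animals of these 4, and the 2 low drip males with liver transcripts are the lowest low drip animals for SLC38A3.

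The nucleotide sugar family, which mostly feeds glycosylation in the Golgi, had 8 members higher and 7 lower, with a median log2 difference of 0.02. Its largest difference among the named members was 0.32 ± 0.20 for SLC35E2B, which has a near-identical copy and 12 to 33 counts per library. SLC35F5 and SLC35E1, whose substrates are not settled, differed by 0.04 ± 0.12 and 0.09 ± 0.10.

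Among the 30 other members 16 were higher and 14 lower, with a median of 0.01. SLC29A2, an equilibrative nucleoside carrier, had levels of 10.4, 17.4 and 26.0 CPM in the high drip group and of 7.76, 10.9 and 16.3 CPM in the low drip group. Of the 6 high drip animals 4 stood above every low drip animal, and the log2 difference was 0.62 ± 0.24 (edgeR adjusted p = 0.999). The related SLC29A1 differed by 0.05 ± 0.10, and it was chosen after its values were seen. The choline transporter-like SLC44A1 and SLC44A2 differed by 0.11 ± 0.12 and 0.06 ± 0.13, and the fatty acid carrier SLC27A1 by 0.15 ± 0.19.

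Between the sexes no carrier passed the test either. With edgeR, 0 of 112 members had an adjusted p under 0.05, as in 0% of all features, and the smallest adjusted p was 0.604. At an unadjusted p under 0.05 there were 11 members (9.82%, against 6.52% of all features), 11 with DESeq2 and 10 with limma voom, and neither of these tools called a member after adjustment. None of the 112 members separated the sexes without overlap, against 0.317% of all features. Of the 11 members, 8 were lower in males (7.14% of the members, against 3.03% of all features) and 3 higher (2.68%, against 3.5%).

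SLC41A3 and SLC30A2 had the smallest of these p-values among the named metal carriers. SLC41A3 had levels of 33.2, 48.5 and 53.9 CPM in females (lowest, median, highest) and of 22.4, 32.0 and 39.8 CPM in males. Only high drip replicate 1 among the females lay within the male range, and the log2 difference, male minus female, was -0.56 ± 0.15 (edgeR adjusted p = 0.604). SLC30A2 stood at 4.44 ± 1.71 CPM in females and 2.76 ± 0.83 CPM in males (SD, n = 6 and 6), a log2 difference of -0.65 ± 0.18 (edgeR adjusted p = 0.604).

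Other named members lay in the same direction. SLC8A3 stood at 110 ± 17.2 CPM in females and 87.0 ± 23.6 CPM in males, a difference of -0.33 ± 0.13 (edgeR adjusted p = 0.730). SLC16A13 differed by -0.63 ± 0.24, SLC16A10 by -0.51 ± 0.22 and SLC35E1 by -0.23 ± 0.10. SLC35F5 was higher in males, 66.8 ± 7.37 against 52.3 ± 9.72 CPM, by 0.36 ± 0.12 (edgeR adjusted p = 0.682). SLC4A1AP, which carries an SLC symbol because its protein binds the anion exchanger SLC4A1 and is not itself a carrier, was higher by 0.24 ± 0.09. Of the 10 sugar carriers 9 had lower fitted levels in males, with a median of -0.12, and the exception was SLC2A4 at 0.28 ± 0.19. All 5 muscle markers also had lower fitted levels in males, with a median of -0.17 and a summed level of 105436 to 145369 CPM against 116595 to 157843 CPM in females, and none was at 0. All 6 adipocyte markers had higher fitted levels in males, with a median of 0.23 and a summed level of 178 to 661 CPM against 117 to 303 CPM in females. The part of either in the sex differences was not tested.

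Whether the drip difference itself varied with sex was tested with a product term, the drip difference of the males minus that of the females. No member passed (0 of 112 with edgeR, 0% of the 10627 features tested), and 4 members (3.57%, against 3.49% of all features) had an unadjusted p under 0.05 with edgeR, with DESeq2 and with limma voom alike. Without the 3 chosen carriers there were 3 of 109 (2.75%) with each tool. SLC12A2 had a value of -0.95 ± 0.26, which is drawn from the drip values it was chosen by and so carries no test. SLC16A5 had a value of 0.80 ± 0.29 (edgeR adjusted p = 1.00). The others, chosen after their values were seen, were SLC22A16, a carnitine carrier, at -1.08, and SLC17A5, which exports sialic acid from lysosomes, at 1.02.

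For SLC12A2 the low drip males stood highest, at 120 ± 17.7 CPM. The low drip females stood at 74.2 ± 13.4 CPM and the high drip females and males at 65.5 ± 10.5 and 54.8 ± 9.37 CPM (SD, n = 3 each). SLC22A16 levels in females were 22.8 ± 5.89 CPM at high drip and 15.5 ± 7.60 CPM at low drip, and in males 19.5 ± 4.47 and 28.1 ± 12.3 CPM, so the order of the group means turned between the sexes. Low drip replicate 4 stood at 42.1 CPM. The other low drip males stood at 23.3 and 18.9 CPM, against 14.6 to 23.2 CPM in the high drip males. With the tables as recorded the product term of SLC22A16 was -0.55. Over all members with a fold in each sex, 57 of 110 had the same sign in females and males (51.8%, against 49.8% of 9981 features). Of these 31 were lower in both sexes and 26 higher.

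**Figure D4:**
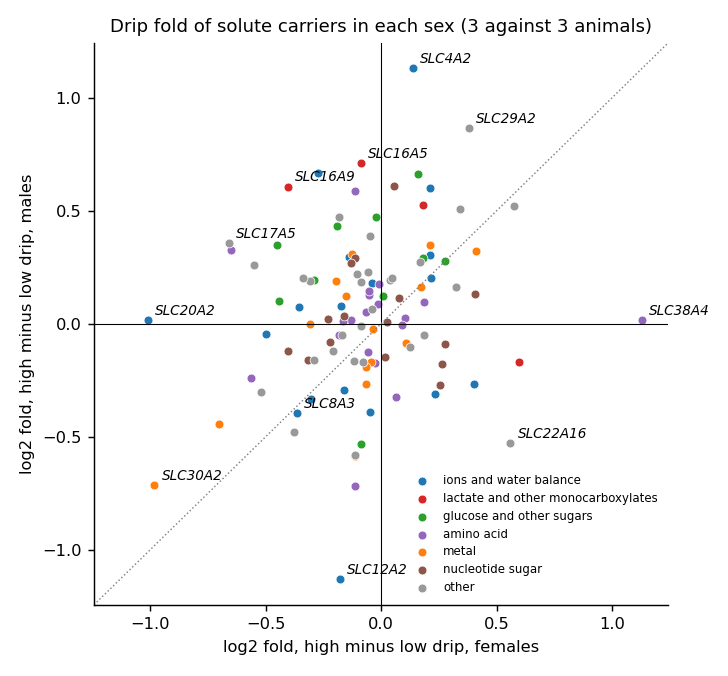
Log2 difference between high and low drip in females (horizontal axis) and in males (vertical axis), 3 against 3 animals each, for the 110 carriers with a value in both, coloured by substrate class, with the dotted line marking equal values. SLC30A2 lies near the line at -0.98 and -0.71, SLC12A2 is at -0.18 and -1.13, and SLC20A2 is at -1.01 and 0.02.

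Libraries with liver transcripts were also compared with those without, with drip and sex as terms. With edgeR 0 of 112 members had an adjusted p under 0.05 for libraries with against without them, against 0.122% of all features, and 10 members (8.93%, against 6.33%) had an unadjusted p under 0.05. SLC2A11, a sugar carrier chosen after its values were seen, was the single member whose libraries with and without them did not overlap (0.893%, against 0.405% of all features), at 2.92 to 5.61 CPM with them and 5.84 to 7.35 CPM without, a log2 difference of -0.74 ± 0.17 (edgeR adjusted p = 0.333). SLC12A2 was higher in libraries with them by 0.42 ± 0.16 once drip and sex were terms. SLC27A1 differed by -0.42 ± 0.17 and SLC38A2 by 0.56 ± 0.23 (edgeR adjusted p = 0.752 for all 3). Liver transcripts were in 3 high drip females, no low drip female, 1 high drip male and 2 low drip males. Given drip and sex, the liver term therefore partly follows their product. For SLC12A2, with a drip difference of -0.18 in the females and -1.13 in the males, the 2 terms cannot be cleanly told apart.

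The carriers differed widely in how much they varied between animals. The coefficient of variation over 12 animals had a median of 26.8% and ran from 8.07% for SLC7A7, a light chain for cationic amino acids, to 83.1% for SLC19A2, a thiamine carrier. Only 5 members exceeded 50%: SLC19A2, SLC3A1, SLC16A3, SLC38A4 and SLC4A4. For SLC16A3 counting error alone would give 4.75%, against 59.8% observed, and for SLC4A4 4.65% against 52.9%. SLC7A7 and SLC19A2 were chosen after their values were seen, as were SLC3A1 and SLC38A4.

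SLC19A2 stood at 91.1 CPM in high drip replicate 4 and 65.4 CPM in low drip replicate 5, and at 7.95 CPM in low drip replicate 4. These 3 animals are all males, and the first 2 had liver transcripts while the third did not. Over all animals the libraries with liver transcripts spanned 12.5 to 91.1 CPM and those without spanned 7.95 to 38.7 CPM, so the 2 kinds overlapped. In a fit of liver transcripts with drip and sex, SLC19A2 differed by 1.23 between libraries with and without them. That was the largest such difference of any member, and it did not pass the adjusted threshold. The log2 difference between drip groups was 0.09 ± 0.53. SLC7A7 kept between 48.7 and 65.7 CPM in all 12 animals. The median standard error of the drip difference was 0.17 for the 49 members of at least 10 CPM and 0.25 for the 63 under it.

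**Figure D5:**
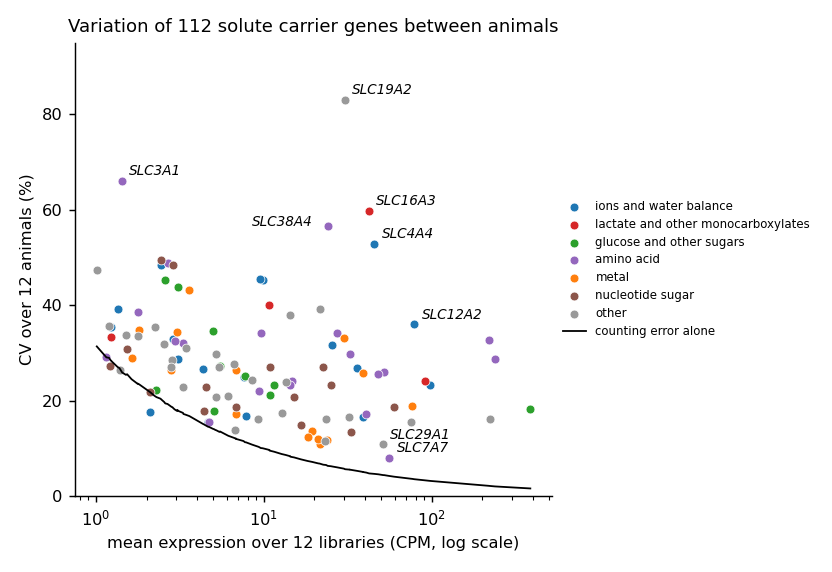
Coefficient of variation over the 12 pigs (%) against mean level (CPM, log scale) for the 112 carriers, coloured by substrate class, with the line showing the variation that counting error alone would give. SLC19A2 is highest at 83.1%, SLC16A3 and SLC4A4 lie far above the line at 59.8% and 52.9%, and SLC7A7 is lowest at 8.07%.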

How the data were processed

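Muscle RNA of 12 pigs was analysed as raw counts per gene, deposited by the authors in a whole-genome and a region table per animal. Per the submitters' processing notes, TopHat2 2.0.3, Bowtie 0.12.7.0, HTSeq and the build Sscrofa10.2 were used; strand setting and annotation release are not given in the sources used here. Rows naming no gene (24.2% to 29.3% no feature, 12.8% to 15.5% not unique and 0.653% to 0.784% ambiguous) were left out. Tables were assigned to animals by number, against the record for 3 animals. Of 20300 Ensembl IDs 10349 were paired with a symbol. No ID was paired with the symbols SLC2A1, SLC16A1, SLC6A8, SLC22A5, SLC7A5, SLC39A14, SLC30A1, SLC12A7 and SLC20A1. These carriers were therefore not analysed here, whatever their level. SLC40A1 lay under 1 CPM.

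The test was that of edgeR 4.0.16, run in R 4.3.3 (TMM, filterByExpr, quasi-likelihood F-test, two-sided, Benjamini-Hochberg, threshold 0.05), with sex and drip as terms, with their product added for the interaction, and with a liver term (ALB above 10 CPM) added to sex and drip. DESeq2 1.42.0 and limma 3.58.1 (voom) were alternatives. CPM is relative to the library's gene counts, with TMM factors. Named members were the 3 chosen carriers, in each class the 2 with the highest mean CPM and those with the smallest drip and sex p, and 20 fixed symbols. Results for a few named genes are not reported here. The members and lists were chosen with earlier results of these data known. The steps were tested on simulated data.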

Additional observations from a re-analysis of the deposited data

Results flagged for a closer look

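In 2 of 58 groups of 6 animals one animal stood apart from the other 5 of its drip group by the Dixon test, and chance alone gives about 1 such group in 20. SLC20A2 stood at 15.8 CPM in high drip replicate 4, a male, against 5.66 to 7.32 CPM in the other high drip animals. SLC3A2 stood at 387 CPM in high drip replicate 2, a female and the library with the highest albumin level, against 178 to 250 CPM. The table of this animal was assigned by number against the record. In a fit of liver transcripts with drip and sex, SLC3A2 differed by -0.33 ± 0.19 between libraries with and without them. High drip replicate 4 decides part of the drip value of SLC20A2, as given above.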

How the results depend on the processing

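Calls were recomputed under 25 alternative settings for drip and the matching ones for sex and the interaction, and 127 of 132 counts of calls were unchanged; no member passed the adjusted threshold under any of them. Over all features, 3 passed for drip in the libraries without liver transcripts, a fit of 2 high and 4 low drip animals whose drip value, with sex as a term, rests on 1 low drip male. For sex, 2 passed with DESeq2 and 1 without the filter on low counts. For the interaction, 7 passed with DESeq2 and 1 with the liver term added. Leaving out each library in turn gave 0 to 0 calls for drip, sex and the interaction. Of 1980 recomputed differences of the 30 named members, 1849 moved by no more than 1 standard error, 131 moved further and 151 had another sign. A minimum of 0.5 CPM gave 131 members and one of 2 CPM gave 97. SLC12A2 and SLC30A2 kept a negative drip difference in all settings run, and males alone and females alone gave -1.13 and -0.18 for SLC12A2. Both were chosen by that difference, and every setting refits the same animals, so the kept sign is no support of its own. The settings include fits within libraries with or without liver transcripts, which rest on 1 male in a drip group. The drip difference of SLC20A2 was 0.02 in males only and 0.13 with tables as recorded. No paired analysis was possible because replicate numbers were given in accession order. Depth limits the members of low level most, since the median standard error of the drip difference was 0.25 under 10 CPM and 0.17 at or above it.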
